A study of Mus musculus with 6 samples.

Results

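The annexins are a family of cytosolic proteins that attach to phosphatidylserine and other acidic phospholipids when calcium rises. The 9 genes described here, Anxa1, Anxa2, Anxa3, Anxa4, Anxa5, Anxa6, Anxa7, Anxa8 and Anxa11, were taken as a listed set, matched by symbol to the Ensembl identifiers, and make up 9 of the 55769 features in each library. RNA-seq libraries came from tissue of the cochlea, the spiral part of the inner ear that senses sound, of mice on postnatal day 3, with 3 libraries from Plscr5-/- mice (the knockout) and 3 from wild-type mice. The labels name no strain and no treatment, do not say which part of Plscr5 was altered, and do not tie the libraries to separate animals, so that the errors and p-values below measure the spread between these libraries, which may be technical. The extraction text speaks of Pou4f3(Δ/+) mice, a genotype that no library carries in its labels, and the groups follow the genotype field.

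Each annexin has a conserved core that binds calcium and membrane, and an N-terminal tail that differs between members and carries the sites for partners such as the S100 proteins. Phosphatidylserine is normally held in the inner leaflet of the plasma membrane. Scramblases, the family after which Plscr5 is named, let phospholipids pass between the leaflets, and annexins bind the phosphatidylserine of whichever membrane they can reach, take part in the sealing of damaged membrane, and act in vesicle traffic. In the inner ear, Anxa5 protein is known as an abundant component of the hair bundle, the mechanosensory organelle of hair cells.

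The upstream sequences of the most abundant members, Anxa5 and Anxa2, and of the member nearest to 0, Anxa8, are shown because these genes mark both ends of the order of levels described next. They are the 250 bases before the RefSeq start on GRCm38.p6, written 5′ to 3′ on the gene's strand with each CpG in capitals. The Anxa5 window is chr3:36475888-36476137 on the minus strand, the Anxa2 window chr9:69453433-69453682 on the plus strand, and the Anxa8 window chr14:34085729-34085978 on the plus strand.
Anxa5: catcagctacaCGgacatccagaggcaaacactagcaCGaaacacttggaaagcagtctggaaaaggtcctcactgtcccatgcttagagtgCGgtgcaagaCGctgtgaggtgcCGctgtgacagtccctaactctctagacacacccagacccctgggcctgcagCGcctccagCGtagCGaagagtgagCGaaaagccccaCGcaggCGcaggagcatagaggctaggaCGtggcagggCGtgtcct
Anxa2: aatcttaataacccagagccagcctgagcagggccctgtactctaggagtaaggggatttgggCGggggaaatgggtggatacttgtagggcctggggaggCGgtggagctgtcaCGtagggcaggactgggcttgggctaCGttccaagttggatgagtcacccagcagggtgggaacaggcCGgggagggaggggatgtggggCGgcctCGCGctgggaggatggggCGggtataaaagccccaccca
Anxa8: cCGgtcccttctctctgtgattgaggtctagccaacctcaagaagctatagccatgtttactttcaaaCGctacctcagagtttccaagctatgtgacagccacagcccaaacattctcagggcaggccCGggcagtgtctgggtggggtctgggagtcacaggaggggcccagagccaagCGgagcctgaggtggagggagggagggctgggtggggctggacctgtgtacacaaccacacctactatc
The windows held 13 CpG for Anxa5, 9 for Anxa2 and 4 for Anxa8, beside a median of 6 over 32851 upstream windows of the same length. The letters TATAAA, searched on both strands, occurred in the Anxa2 window and not in the other two shown, and 12.4% of all windows held them. The letters GGGCGG, also on both strands and with overlaps allowed, occurred 3 times in the Anxa2 window and in neither of the others, against 32.7% of all windows with 1 or more. Of the 9 members, 7 had an entry in the RefSeq table. Those of Anxa11 and Anxa1 held 17 and 2 CpG, and Anxa4 and Anxa7 had 2 starts each, with 13 and 2 CpG for Anxa4 and 16 and 2 for Anxa7. These are descriptions of letters, and no binding or methylation was measured here.

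Transcript levels were read in TPM, which is scaled by transcript length and can be compared between genes. Averaged over the 6 libraries, Anxa5 stood at 524 ± 24 TPM (SD, n = 6), Anxa2 at 420 ± 22 TPM and Anxa6 at 343 ± 11 TPM. These 3 genes made up 86.7% ± 0.5 of the summed annexin TPM, and each lay above 98.0% or more of the 17097 features tested. Anxa5 has little beyond the conserved core, Anxa2 forms a complex with S100a10 that links membranes, and Anxa6 carries an extra copy of the core.

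Below them the order was Anxa4 at 66.5 ± 4.6 TPM, Anxa1 at 51.9 ± 4.2 TPM, Anxa7 at 46.2 ± 3.7 TPM, Anxa11 at 16.9 ± 1.5 TPM and Anxa3 at 15.2 ± 1.7 TPM, each over 6 libraries. Anxa6 exceeded Anxa4 by 5.15 times, and Anxa7 exceeded Anxa11 by 2.74 times. Among neighbours in this order, the ranges over the 6 libraries overlapped for Anxa1 and Anxa7 and for Anxa11 and Anxa3, and for no other pair. Even so, Anxa1 exceeded Anxa7 in 6 of 6 libraries, and Anxa11 exceeded Anxa3 in 5 of 6.

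Anxa8 (ENSMUSG00000021950), a member known from stratified and other specialised epithelia, was near 0 in every library. It was listed at 0.19, 0.46 and 0.06 TPM in knockout replicates 1, 2 and 3, and at 0.10, 0.13 and 0 TPM in wild-type replicates 1, 2 and 3. The highest value belonged to knockout replicate 2, and the genotypes overlapped. Anxa8 did not reach the filter of 1 TPM in 3 libraries and was not tested, which leaves 8 members in the comparison of genotypes.

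**Figure D1:**
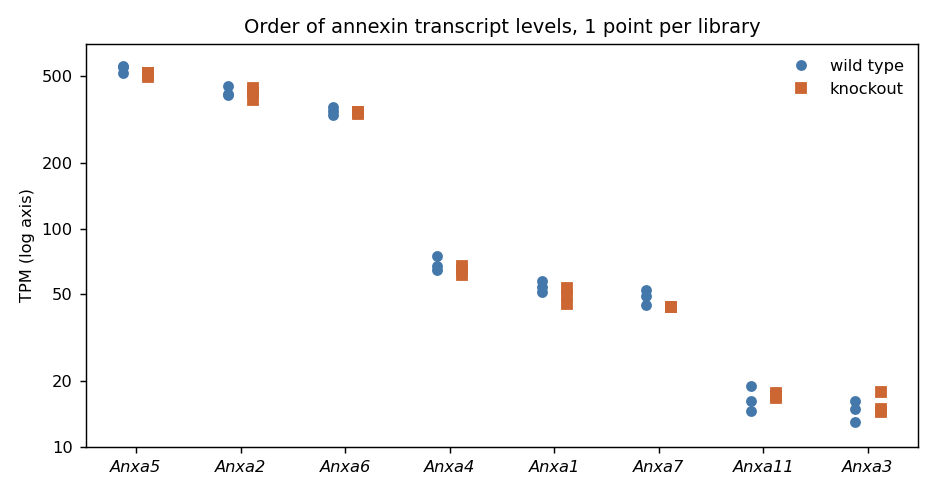
Levels of 8 annexin genes in TPM on a log axis, ordered by their mean over 6 libraries, with 1 circle per wild-type and 1 square per knockout library; Anxa8, listed at 0 in 1 library, is left out. Anxa5, Anxa2 and Anxa6 form the upper group, Anxa4, Anxa1 and Anxa7 the middle one, and Anxa11 and Anxa3 the lowest.

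Plscr5 itself was lower in every knockout library, at 4.30, 3.69 and 5.01 TPM against 14.53, 12.42 and 9.27 TPM in wild-type libraries (log2 fold change -1.28, limma adjusted p = 0.29). Fold changes are differences of the mean log2(TPM + 1), wild type subtracted from knockout, so that those of low genes come out too small, and adjusted p-values are from limma with Benjamini-Hochberg adjustment over all 17097 features. The comparison asked whether the genes for these phosphatidylserine-binding proteins differed in level in cochleae of the scramblase knockout. In bulk tissue, fewer cells of a type and less RNA per cell cannot be told apart.

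None of the 8 tested annexins passed the adjusted threshold of 0.05 (limma adjusted p from 0.989 to 0.993), and 0 of 8 had an unadjusted p under 0.05 (smallest 0.106). Over all features 0.0117% passed after adjustment and 4% had an unadjusted p under 0.05. By sign, 6 members were on the lower side in the knockout and 2, Anxa3 and Anxa11, on the higher, beside 53.4% of all features on the lower side. The median log2 fold change of the 8 members was -0.06 and that of all tested features -0.01. The 95% confidence intervals of all 8 lay between -0.34 and 0.38, or 0.789 to 1.30 times the wild-type level, and 72.4% of all features had an interval within 1.5-fold either way.

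**Figure D2:**
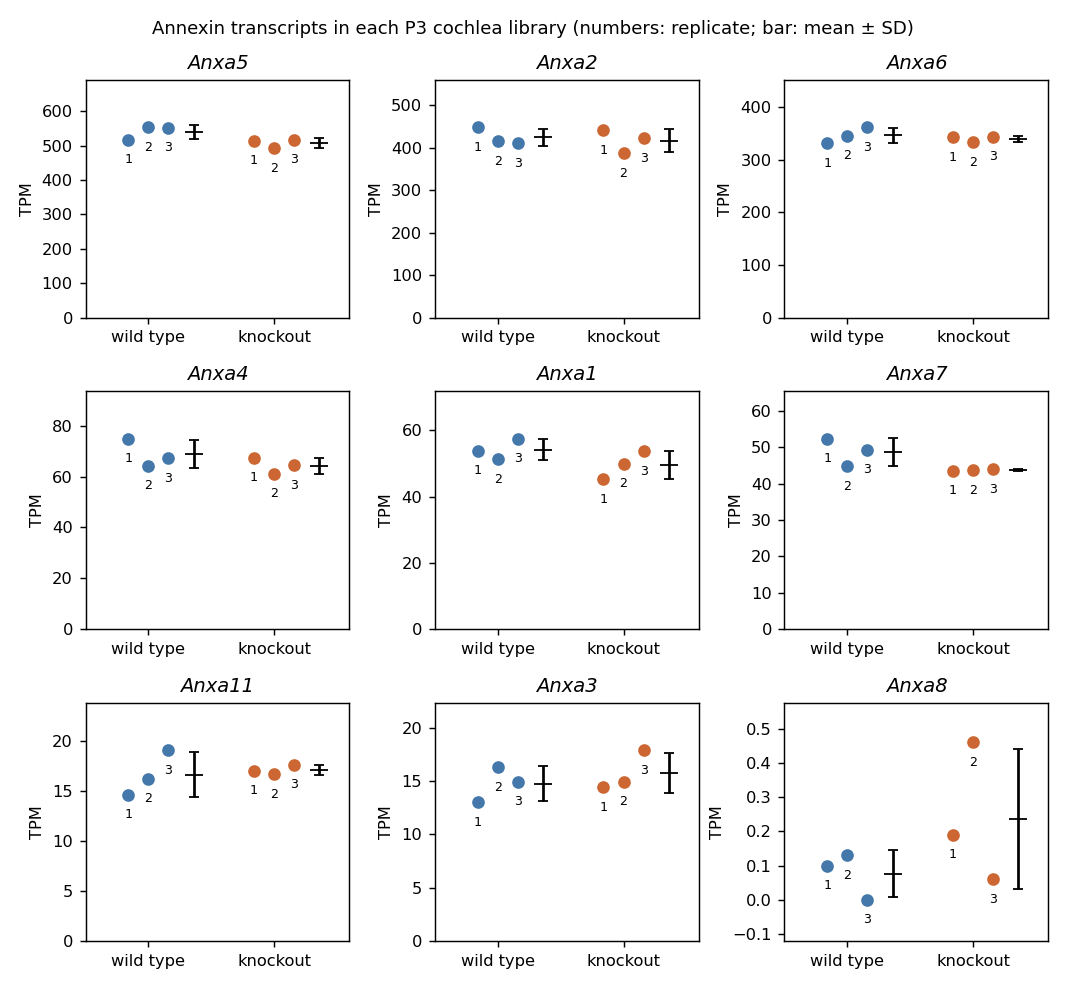
Each panel shows 1 annexin, with TPM on the vertical axis, 1 point per library numbered by replicate, and a bar for the mean ± SD of 3 libraries; panels are ordered by level and the Anxa8 panel spans less than 1 TPM. The genotypes overlap in every panel except those of Anxa5 and Anxa7, where the knockout points lie just below the wild-type ones.

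Anxa5 (ENSMUSG00000027712), whose protein is the phosphatidylserine probe used to stain dying cells, was measured at 514.37, 492.22 and 516.59 TPM across knockout replicates and at 516.88, 552.80 and 551.03 TPM across wild-type replicates. The groups did not overlap, but only 0.29 TPM separated knockout replicate 3 from wild-type replicate 1. Knockout libraries averaged 508 ± 13 TPM and wild-type libraries 540 ± 20 TPM (SD, n = 3 each), a difference of -6.02%. Its log2 fold change was -0.09 (SE 0.05, 95% confidence interval -0.21 to 0.04).

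Anxa7 (ENSMUSG00000021814), a long-tailed member whose tail binds the calcium sensors Pdcd6 and sorcin, was the other gene without overlap. It was measured at 43.53, 43.69 and 43.88 TPM across knockout replicates and at 52.24, 44.71 and 49.23 TPM across wild-type replicates. The knockout libraries were nearly identical while the wild-type libraries were spread, and wild-type replicate 2 lay 0.83 TPM above the knockout. The log2 fold change of Anxa7 was -0.15 (SE 0.08, 95% confidence interval -0.34 to 0.04), and the mean differed by -10.3%. Without wild-type replicate 1 the log2 fold change was -0.10, and without wild-type replicate 2 it was -0.21.

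So 2 of 8 members had knockout values all below the wild-type values, against 4.74% of all features. A two-sided exact permutation test gave p = 0.1 for Anxa5 and for Anxa7, the smallest that 3 libraries against 3 can give. This separation depended on the scaling: of the 8 members, 1 (Anxa5) was separate after quantile normalization, 1 (Anxa7) with protein-coding genes only, and 0 after centring each library on its median. Anxa5 and Anxa7 both stayed separate with haemoglobin and mitochondrial genes removed.

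Anxa1 (ENSMUSG00000024659), known as a glucocorticoid-induced protein that limits inflammation, was measured at 45.19, 49.84 and 53.67 TPM across knockout replicates and at 53.88, 51.26 and 57.38 TPM across wild-type replicates. Knockout replicate 1 was lowest and wild-type replicate 3 highest, and knockout replicate 3 lay within the wild-type range. Its log2 fold change was -0.13 (SE 0.09, 95% confidence interval -0.34 to 0.08). It was -0.06 without knockout replicate 1, -0.19 without knockout replicate 3 and -0.036 with a covariate for the level of neuron and Schwann cell markers.

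Anxa4 (ENSMUSG00000029994), an epithelial annexin that assembles into lattices on membranes, was measured at 67.34, 61.12 and 64.36 TPM across knockout replicates and at 74.77, 64.28 and 67.10 TPM across wild-type replicates. Wild-type replicate 1 was the highest, and the remaining wild-type values lay within the knockout range. The log2 fold change was -0.09 (SE 0.08), and it was -0.03 without wild-type replicate 1 and -0.14 without wild-type replicate 2.

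Anxa2 (ENSMUSG00000032231) and Anxa6 (ENSMUSG00000018340), the other abundant members, had group means that differed by -1.75% and -1.76%. Anxa2 was measured at 440.40, 387.11 and 422.44 TPM across knockout replicates and at 447.62, 414.64 and 409.89 TPM across wild-type replicates. In both genotypes replicate 1 was highest, and the groups overlapped across most of their range. Its log2 fold change was -0.03 (95% confidence interval -0.18 to 0.13), and it turned to 0.03 without knockout replicate 2 and to 0.01 without wild-type replicate 1. Anxa6 was measured at 342.53, 332.98 and 343.33 TPM across knockout replicates and at 331.01, 344.97 and 361.15 TPM across wild-type replicates. The wild-type libraries enclosed the knockout ones. The log2 fold change of Anxa6 was -0.02 (95% confidence interval -0.15 to 0.11), and it was 0.01 without wild-type replicate 3.

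Anxa11 (ENSMUSG00000021866), a long-tailed member that tethers RNA granules to lysosomes, was measured at 17.04, 16.68 and 17.67 TPM across knockout replicates and at 14.64, 16.27 and 19.08 TPM across wild-type replicates. Here too the wild-type libraries were lowest and highest, with a log2 fold change of 0.04 (95% confidence interval -0.22 to 0.31) that turned to -0.04 without wild-type replicate 1, and became 0.14 once wild-type replicate 3 was left out and 0.18 under the nerve marker covariate. An antisense gene, Anxa11os, overlaps Anxa11 and was listed at 0 to 0.24 TPM. The use of strand in the counting is not given in the sources used here, so reads of Anxa11 and Anxa11os may not have been told apart. Anxa3 (ENSMUSG00000029484), known as an abundant annexin of neutrophils, was measured at 14.39, 14.93 and 17.85 TPM across knockout replicates and at 13.00, 16.26 and 14.91 TPM across wild-type replicates. Knockout replicate 3 was the highest, and the log2 fold change of 0.09 (95% confidence interval -0.20 to 0.38) was -0.00073 without it. Neutrophil markers were low, with a summed level of 1.23 to 8.15 TPM in knockout and 4.29 to 6.98 TPM in wild-type libraries over 8 genes. Knockout replicate 3, the library highest in Anxa3, also had the highest of these sums. There S100a9 stood at 3.65 TPM, beside 3.47 TPM in wild-type replicate 3. Of the 8 genes 2 reached the filter, and Ly6g was at 0 in all 6 libraries. The part of neutrophil RNA in the Anxa3 values was not tested.

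Added up, the 9 members came to 1485, 1399 and 1480 TPM across knockout replicates and to 1504, 1505 and 1530 TPM across wild-type replicates. The summed level lay lower in all 3 knockout libraries, at 1455 ± 48 against 1513 ± 14 TPM, a difference of -3.86% that is a description of the sum and was not tested. The means of Anxa5 differed by more TPM than those of any other member. The genotypes overlapped in each gene's share of the sum, with Anxa5 at 34.9% ± 0.3 in the knockout and 35.7% ± 1.2 in the wild type, Anxa2 at 28.6% ± 1.0 and 28.0% ± 1.5, and Anxa6 at 23.4% ± 0.4 and 22.8% ± 0.8.

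The spread of each annexin between libraries was described beside that of other features. Over all 6, the SD of log2(TPM + 1) ran from 0.045 for Anxa6 to 0.15 for Anxa3, with a median of 0.10 over the 8 members. The median was 0.13 over the 10622 tested features with a mean of at least 10 TPM. Those features were not matched to the annexins in level, so a low spread particular to annexins is not shown. No member reached the SD of 0.2 that had been set for a search for genes with a like profile, so none was named.

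Marker lists of cochlear cell types differed between the libraries. Markers of spiral ganglion neurons summed to 787 to 973 TPM in knockout and 477 to 817 TPM in wild-type libraries over 10 genes, and those of Schwann cells to 1468 to 2254 and 541 to 1452 TPM over 10 genes, with wild-type replicate 3 lowest in both and knockout replicate 1 highest. On the higher side in the knockout were 8 of the 10 neuron markers and 9 of the 10 Schwann cell markers, 0 of them past the threshold. Not every marker was low in wild-type replicate 3, where Isl1 was at its highest, 244.91 TPM, and Sox10 stood at 186.10 TPM. In wild-type replicate 3 Anxa1, Anxa6 and Anxa11 were at their highest of the 6 and Anxa5 and Anxa7 at their second highest. The other members ranked lower there: Anxa4 was 3rd from the highest, Anxa3 4th, Anxa2 5th and Anxa8 6th. Without wild-type replicate 3 the log2 fold changes were on the lower side for 5 of 8 members, beside 52.9% of all features. The member median was then -0.06. The sum of supporting cell markers, like the annexin sum, was lower in every knockout library, at 1292 to 1378 TPM against 1407 to 1576 TPM. By fold change all 10 genes were on the lower side and 0 past the threshold. Single markers could still overlap, as did S100a1, at 592.32 TPM in knockout replicate 3 and 557.48 TPM in wild-type replicate 1. Hair cell markers overlapped, at 596 to 662 and 584 to 614 TPM over 12 genes, 8 of them on the lower side, as did those of macrophages, at 138 to 163 and 142 to 151 TPM over 11 genes, and of endothelial cells, at 329 to 351 and 322 to 352 TPM over 10 genes. Mesenchyme and fibroblast markers summed to 2846 to 3274 TPM in knockout and 2599 to 2844 TPM in wild-type libraries over 10 genes. The sums did not overlap, but knockout replicate 3 at 2846.33 TPM lay just above wild-type replicate 2 at 2844.18 TPM. Of the 10 genes, 7 were on the higher side in the knockout and 3 on the lower. The median over these genes of log2(TPM + 1) minus its mean over the libraries did overlap between genotypes. It was -0.018 in knockout replicate 2 and -0.016 in wild-type replicate 1. The labelled tissue held hair cell RNA, with Pou4f3 at 31.24 to 37.78 TPM. All 5 matched markers of strial marginal cells reached the filter, from Kcne1 at 0.58 to 2.37 TPM to Slc12a2 at 104.47 to 131.95 TPM. Of 6 melanocyte markers 3 reached it, with Tyr at 0.17 to 0.79 TPM and Kcnj10 at 17.72 to 38.95 TPM. No gene of the 7 summed lists was listed at 0 in all libraries, and the part of these marker differences in the annexin values was not tested.

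**Figure D3:**
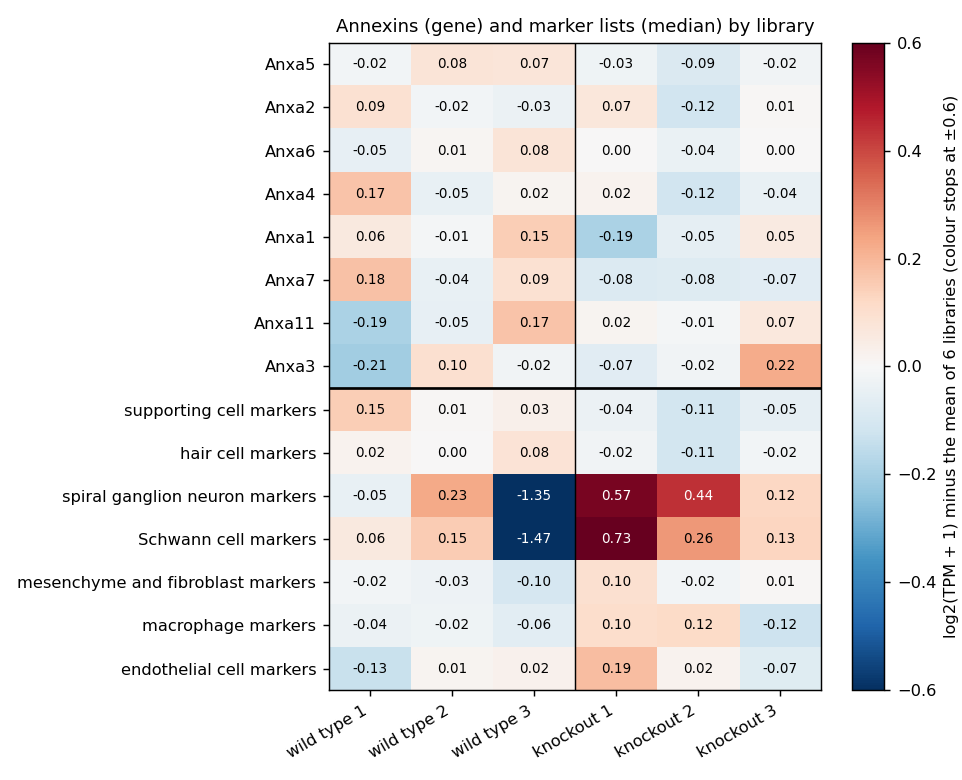
Rows are the 8 tested annexins and, below the line, the medians of 7 marker lists; columns are the 6 libraries, and colour and number give log2(TPM + 1) minus the mean over the libraries. The annexins stay between -0.21 and 0.22, while the neuron and Schwann cell medians fall to -1.35 and -1.47 in wild-type replicate 3.

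The partners of the annexins were compared next. Of 16 listed annexin-binding proteins and receptors, 13 were tested, 5 of them on the higher and 8 on the lower side in the knockout, and 0 passed the threshold. Their median log2 fold change was -0.02, and it turned to 0.010 without wild-type replicate 1 and 0.0079 without knockout replicate 2 and reached -0.045 without wild-type replicate 2. Of the 13, 2 were higher and 1 lower in the knockout without overlap of the groups, beside 4.6% and 4.74% of all features. The receptors of Anxa1, Fpr1 and Fpr2, and plasminogen, Plg, which binds the Anxa2 complex, were named after their values were seen: all 3 stayed below the filter, with no value above 0.38 TPM.

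S100a10, the partner that joins a pair of Anxa2 molecules, was measured at 216.35, 221.95 and 197.78 TPM across knockout replicates and at 214.41, 190.68 and 175.67 TPM across wild-type replicates. The genotypes overlapped, with wild-type replicate 3 lowest. The log2 fold change was 0.13 (95% confidence interval -0.07 to 0.33), and it was 0.066 without wild-type replicate 3, 0.21 without wild-type replicate 1 and 0.032 with a covariate for nerve marker level. For each TPM of Anxa2 there were 0.51 ± 0.06 TPM of S100a10 in the knockout and 0.46 ± 0.03 in the wild type, with knockout replicate 2 highest at 0.57. S100a11, the Anxa1 partner, was far above Anxa1 in level, at 658 ± 12 and 667 ± 21 TPM, or 13.3 ± 0.9 and 12.3 ± 0.5 TPM for each TPM of Anxa1. S100a6, which binds Anxa11, was measured at 74.09, 75.72 and 82.33 TPM across knockout replicates and at 70.83, 73.76 and 72.82 TPM across wild-type replicates. The groups were separate by 0.33 TPM (log2 fold change 0.09, 0.05 without knockout replicate 3 and 0.12 without knockout replicate 1). Pdcd6, a calcium sensor bound by Anxa7 and Anxa11, stood at 114 ± 4 and 116 ± 9 TPM.

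The partner gene with the smallest p was Prkca, the classical protein kinase C alpha, which like the annexins needs calcium and phosphatidylserine to bind membrane. It was measured at 12.11, 10.74 and 9.90 TPM across knockout replicates and at 13.87, 14.23 and 15.04 TPM across wild-type replicates. The groups did not overlap, and the knockout mean was 24.1% lower. The log2 fold change of -0.37 (SE 0.11, 95% confidence interval -0.63 to -0.11) had an unadjusted p of 0.011, but with a limma adjusted p of 0.989 Prkca was not past the threshold. S100a4, an Anxa2-binding S100 protein, was measured at 18.09, 19.12 and 17.35 TPM across knockout replicates and at 17.08, 13.45 and 7.65 TPM across wild-type replicates. Only 0.27 TPM lay between the groups, and the lowest value belonged to wild-type replicate 3, the library low in nerve markers. The log2 fold change of 0.55 was 0.25 without that library and 0.78 without wild-type replicate 1. Ahnak, a giant scaffold bound by the Anxa2 complex, stood at 21.04, 13.57 and 11.60 against 21.91, 16.85 and 14.70 TPM. Replicate 1 was highest in both genotypes, and the log2 fold change was -0.22 (SE 0.23), moving to -0.46 without knockout replicate 1 and to -0.05 without knockout replicate 3.

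**Figure D4:**
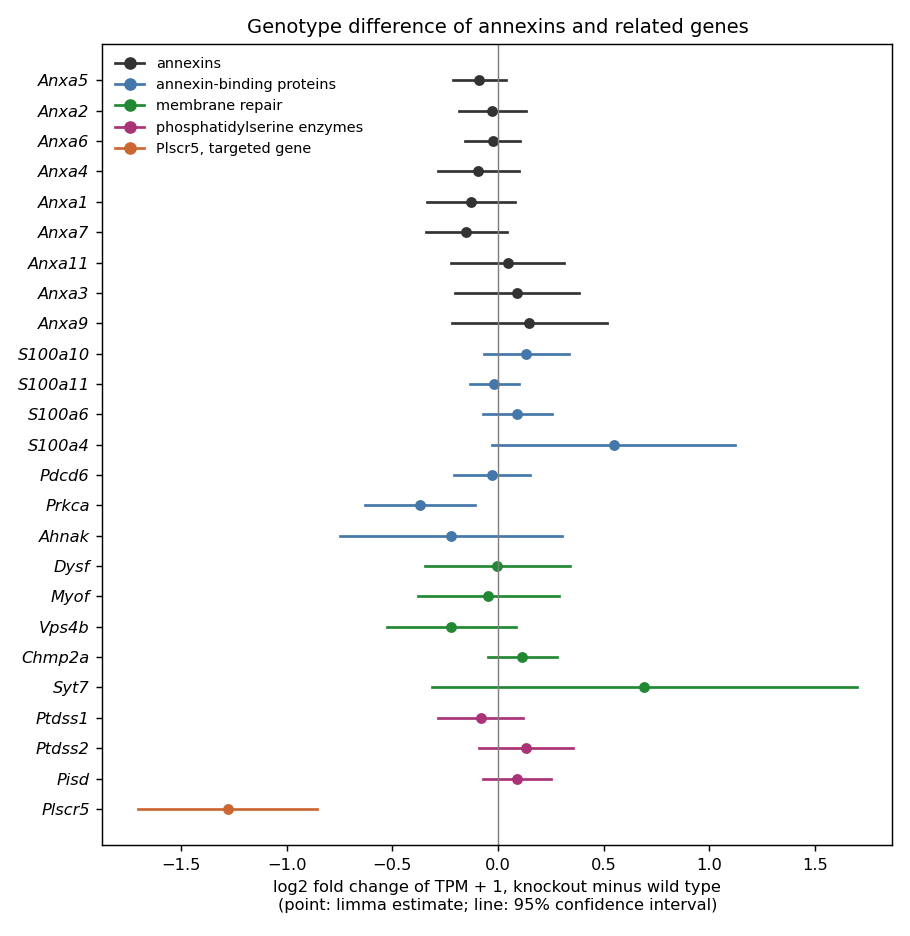
Points are log2 fold changes of TPM + 1, knockout minus wild type, and lines their 95% confidence intervals from limma for 9 annexins, 7 binding partners, 5 membrane repair genes, 3 phosphatidylserine enzymes and Plscr5. All annexin intervals include 0, and apart from Plscr5 only the interval of Prkca lies wholly on the lower side.

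Of 16 genes of plasma membrane repair, the process in which annexins plug and fold torn membrane with ferlins and the ESCRT-III machinery, 14 were tested. They divided into 7 on the higher and 7 on the lower side, with a median log2 fold change of 0.01, and 0 passed. Leaving out 1 library moved this median from -0.024 (without wild-type replicate 1) to 0.057 (without wild-type replicate 2), so it has no stable sign. Of the 14, 1 was higher and 1 lower in the knockout without overlap of the groups, beside 4.6% and 4.74% of all features. The ferlins Dysf and Myof averaged 3.42 ± 0.21 and 18.9 ± 2.8 TPM over knockout libraries, and 3.44 ± 0.36 and 19.5 ± 2.9 TPM over wild-type libraries. Vps4b, an ATPase that recycles ESCRT-III, had a log2 fold change of -0.22 (SE 0.13), which was -0.10 without wild-type replicate 3 and -0.33 without wild-type replicate 2. Chmp2a, an ESCRT-III subunit, stood at 146 ± 6 and 135 ± 8 TPM, with 0.21 TPM between the groups and a log2 fold change of 0.12 that was 0.064 without wild-type replicate 1. Chmp3, another ESCRT-III subunit, named after its values were seen, was separate in the opposite direction, at 71.1 ± 1.4 and 76.5 ± 2.9 TPM with 0.48 TPM between the groups (log2 fold change -0.10). Syt7, a calcium sensor of lysosome exocytosis that neurons also express, was measured at 28.45, 17.27 and 17.30 TPM across knockout replicates and at 15.33, 18.85 and 6.20 TPM across wild-type replicates. Its low value was again that of wild-type replicate 3, and the log2 fold change of 0.69 was 0.25 without that library and 0.98 without wild-type replicate 2. With the nerve marker covariate it was -0.035, and the cause of the Syt7 difference was not tested. Trim72 and Cav3, membrane repair genes of muscle and named after their values were seen, were below the filter.

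The enzymes that make phosphatidylserine, Ptdss1 and Ptdss2, overlapped between genotypes. Ptdss1 averaged 34.7 ± 1.5 TPM over knockout and 36.9 ± 2.5 TPM over wild-type libraries (log2 fold change -0.08), and Ptdss2 36.9 ± 3.8 and 33.5 ± 1.0 TPM (0.13). Leaving out 1 library moved Ptdss1 between -0.14 (without wild-type replicate 3) and -0.04 (without wild-type replicate 2), and Ptdss2 between 0.07 (without knockout replicate 1) and 0.21 (without knockout replicate 3). Pisd, which turns phosphatidylserine into phosphatidylethanolamine in mitochondria, averaged 66.9 ± 1.9 and 62.8 ± 2.3 TPM (0.09) with 0.73 TPM between the groups. None of the 3 passed, and 9.33% of all features had groups that did not overlap in either direction.

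Of the 3 remaining annexin genes, Anxa9, whose calcium sites are degenerate, was measured at 2.71, 3.16 and 2.84 TPM across knockout replicates and at 2.16, 2.74 and 2.68 TPM across wild-type replicates. The groups overlapped by 0.03 TPM. The log2 fold change was 0.15 (SE 0.16), 0.07 without wild-type replicate 1 and 0.19 without wild-type replicate 2. Anxa10 was listed at 0.08 TPM in wild-type replicate 1 and at 0 in the other 5 libraries, and Anxa13 at 0.06 and 0.05 TPM in knockout replicates 2 and 3 and at 0 in the rest.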

How the data were processed

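Total RNA of 6 postnatal day 3 cochlea libraries was sequenced, 3 per genotype as given in the labels. The deposited values are TPM (abundance per transcript length scaled to a library total of 1000000), a unit read from their sums. The sources used here name no aligner, quantifier or annotation, and per the submitters' processing notes DESeq2 and the build mm8 are listed, with no role given. TPM keeps no read depth, so no counting interval can be given. Symbols came from GENCODE M21 (GRCm38) for 52083 of 55769 features, including all 9 members. Because the build differs from the one in the notes, the only coordinates printed are those of the RefSeq upstream windows.

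The 17097 features that reached 1 TPM in 3 or more libraries were put on the log2(TPM + 1) scale (pseudocount 1) and fitted by genotype in limma 3.58.1 (R 4.3.3), using its mean-variance trend and robust moderation. P-values were adjusted by Benjamini-Hochberg over all features, with a threshold of 0.05. Exact permutation tests used scipy 1.17.1. The fit was also run on simulated data with independent noise for each value, which leaves out differences shared across a library. The members and lists were chosen with earlier results of these data known. Named were all annexins, Plscr5, 8 partner, repair and synthesis genes set beforehand, and up to 3 further genes of each related list with the smallest p. Of 186 listed genes, 185 were matched. The 18 alternatives were other pseudocounts, filters, scalings, variance models and covariates, and each library left out.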

Additional observations from a re-analysis of the deposited data

How the results depend on the processing

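In all 18 alternatives 0 annexins passed the threshold (adjusted p from 0.451 to 1.00), and the median log2 fold change of the members stayed between -0.07 and -0.03. Without a single library the summed annexin difference ran from -73.6 to -30.7 TPM. The count of annexins whose genotypes do not overlap, 2 as deposited, was 1 with quantile normalization (Anxa5), 0 with median centring and 1 with protein-coding genes only (Anxa7). It stayed at 2 with haemoglobin and mitochondrial genes removed. Over all features, 2 lower and 0 higher ones passed. The count of lower features was 1 with a pseudocount of 5, with median centring, with haemoglobin and mitochondrial genes removed and with protein-coding genes only, 0 without a filter and without trend and robust moderation, and 4 with array weights. The count of higher features was 1 with a pseudocount of 5, with protein-coding genes only and with the nerve score covariate, and 2 with array weights. Leaving out single libraries gave 0 to 2 lower and 0 to 2 higher features: 0 lower ones passed without knockout replicate 1 or 3, or without the first wild-type replicate, and without the second or the third of these 1 lower one passed, beside 1 and 2 higher ones. With the replicate block 0 lower features passed. The labels do not say whether replicate numbers pair the libraries. Deviations of same-numbered libraries correlated at 0.19, -0.05 and 0.24, and those of differently numbered ones at -0.27 to 0.13. With 3 libraries per genotype these values cannot decide whether the libraries are paired. The partner list median was 0.023 with the nerve score covariate and lay between -0.045 and 0.010 with 1 library left out, and the repair list median ran from -0.024 to 0.057. That covariate, the mean level of neuron and Schwann cell markers, moved Anxa1 to -0.036, Anxa11 to 0.18 and S100a10 to 0.032 with the sign kept. Also with the sign kept, Vps4b moved to -0.0050, S100a4 to 0.13 and Ahnak to -0.48. Of 448 checks on 25 named genes, 425 kept sign and call, 22 changed sign and 1, on Plscr5, gained a call. With the nerve score covariate the log2 fold change was 0.017 for Anxa6, 0.023 for S100a11, 0.031 for Pdcd6, 0.029 for Dysf, 0.15 for Myof and -0.035 for Syt7. Dysf was 0.013 with median centring, and array weights gave 0.049 for Pdcd6 and 0.0085 for Myof. Leaving out single libraries gave ranges of -0.067 to 0.026 for Anxa2, -0.00073 to 0.16 for Anxa3, -0.056 to 0.0071 for Anxa6, -0.039 to 0.14 for Anxa11, -0.037 to 0.0069 for S100a11, -0.094 to 0.010 for Pdcd6, -0.074 to 0.035 for Dysf and -0.15 to 0.063 for Myof. The cause of these changes was not tested. Depth is unknown, and 3 libraries per genotype limit what can be detected.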
